A study of Mus musculus with 42 samples.

Results

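The interferon regulatory factor (IRF) family was followed in spleens of female BALB/c mice after activation of Toll-like receptor 9 (TLR9). The members are Irf1, Irf2, Irf3, Irf4, Irf5, Irf7, Irf8 and Irf9, each taken as the mean of the array features that carry its gene symbol alone. They are 8 of the 15277 genes of the table and rest on 14 of its 30601 features, of which Irf1 has 4, Irf3 has 3, Irf9 has 2 and each other member has 1. Mice were left untreated (6 arrays), or were injected intraperitoneally with 400 µg of an equimolar mixture of the CpG oligodeoxynucleotides (ODN) 1555 and 1466, which engage TLR9, or with 400 µg of the control ODN 1612 and 1471. Spleens were taken 3 h, 9 h, 24 h and 72 h and 5, 7, 9 and 14 days after CpG ODN and 3 h after control ODN, with 4 arrays per group. The mice are labelled wild type, and the labels used here give neither their age nor pooling. On each array, Cy5-labelled cDNA of a spleen was hybridised with Cy3-labelled cDNA of a common reference RNA mixed from several mouse tissues and cell types. Every value below is therefore a log2 ratio of spleen over reference, with the base and the direction inferred from the values, and the level of a member is comparable between groups but not with the level of another member.

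IRF proteins share an amino-terminal DNA-binding domain that recognises GAAA repeats in the promoters of interferon and interferon-stimulated genes. IRF3, IRF5 and IRF7 lie latent in the cytoplasm and are switched on by phosphorylation downstream of pattern recognition receptors, and IRF7 is the member through which TLR9 evokes interferon-alpha in plasmacytoid dendritic cells. IRF9 is the DNA-binding subunit of the complex ISGF3, which carries the signal of the type I interferon receptor to DNA. IRF1 is an interferon-gamma-induced activator, IRF2 binds the same sites and often represses them, and IRF4 and IRF8 act with partners such as PU.1 and BATF in lymphocytes and myeloid cells.

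The RefSeq table (GRCm38.p6) held promoter windows of 300 bases, from 250 bases before to 50 bases after a transcription start, for 8 of 8 members, 11 windows in all because Irf1, Irf8 and Irf9 have more than 1 start. Both strands were searched for 4 motifs: the tandem IRF site GAAANNGAAA, found in 3.44% of all 32851 windows, the STAT-binding GAS site TTCNNNGAA (8.3%), the kB consensus to which NF-kB binds (8.46%) and the Ets-IRF composite GGAANNGAAA (2.72%), which can share letters with the tandem site. The windows of Irf1, Irf2, Irf4 and Irf7 are shown because the main differences below concern these genes, with motif matches in capitals.
Irf1, chr11:53769764-53770063, plus strand: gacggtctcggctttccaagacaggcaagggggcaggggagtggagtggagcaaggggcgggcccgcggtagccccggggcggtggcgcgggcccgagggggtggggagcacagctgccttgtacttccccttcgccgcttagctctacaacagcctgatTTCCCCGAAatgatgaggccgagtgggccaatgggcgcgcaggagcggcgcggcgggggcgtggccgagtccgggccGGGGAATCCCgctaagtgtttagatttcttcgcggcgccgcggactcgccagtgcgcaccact
Irf2, chr8:46739495-46739794, plus strand: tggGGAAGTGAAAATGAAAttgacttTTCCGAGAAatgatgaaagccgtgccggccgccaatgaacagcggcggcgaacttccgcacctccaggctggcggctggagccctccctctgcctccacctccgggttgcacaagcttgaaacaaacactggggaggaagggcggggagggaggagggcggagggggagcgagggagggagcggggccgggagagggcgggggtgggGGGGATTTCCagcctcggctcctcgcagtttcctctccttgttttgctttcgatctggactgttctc
Irf4, chr13:30748983-30749282, plus strand: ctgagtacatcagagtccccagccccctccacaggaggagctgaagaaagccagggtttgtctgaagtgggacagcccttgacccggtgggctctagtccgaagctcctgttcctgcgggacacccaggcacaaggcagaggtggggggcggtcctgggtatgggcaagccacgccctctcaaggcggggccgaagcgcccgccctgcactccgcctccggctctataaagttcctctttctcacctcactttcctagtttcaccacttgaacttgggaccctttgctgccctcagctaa
Irf7, chr7:141266375-141266674, minus strand: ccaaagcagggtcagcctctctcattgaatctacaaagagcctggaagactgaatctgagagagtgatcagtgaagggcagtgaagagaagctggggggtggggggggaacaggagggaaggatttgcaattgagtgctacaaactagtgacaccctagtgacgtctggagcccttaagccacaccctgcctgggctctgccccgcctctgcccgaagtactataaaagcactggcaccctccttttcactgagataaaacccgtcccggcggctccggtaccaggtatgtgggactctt
In the Irf1 window a GAS site began at -90 and a kB match at -13, counted from the start. The Irf2 window held all 4 motifs, with the Ets-IRF composite at -247 overlapping the tandem IRF site at -241, a GAS site at -224 and a kB match at -17. A window of Irf8 held GAS sites at -171 and -153. The windows of Irf3, Irf4, Irf5, Irf7 and Irf9, and the second windows of Irf1 and Irf8, did not contain these letters. A match is a sequence description and not a measured binding site.

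Values were missing for 173 to 1740 features per array, array medians ran from -0.014 to 0.019, and 0 pairs of arrays were identical. Spleen was recognisable in its B cell markers, with Cd79a at 5.64 ± 0.55 (SD, n = 6) in untreated spleens. Irf5 had a value on 39 of 42 arrays, the missing ones being replicate 2 of control ODN and replicate 1 of CpG 24 h and of CpG 72 h, and the other members had one on all 42. Array database numbers in the titles fall into 10 runs when a gap of over 12 starts a new run. This cutoff was set here, and no other was tested. With it, 3 CpG groups could be compared with untreated spleens with run as a fixed block. Under this cutoff untreated arrays share a run with CpG arrays only at 3 h (replicates 3 and 4 of CpG 3 h with untreated replicate 2). The 9 h and 24 h groups are joined to them through CpG 3 h. The later groups and control ODN lie in runs without untreated arrays, so that for these the run and the treatment cannot be told apart. Nothing in the processed values separates fewer cells of a type from less RNA per cell in a whole spleen.

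Differences were tested with limma in 1 fit of all arrays and are given as log2 difference ± standard error, with p-values adjusted over all genes of a comparison (Benjamini-Hochberg) and called below 0.05. At 3 h, 5 of 8 members were higher in CpG spleens than in untreated ones (Irf1, Irf2, Irf4, Irf7 and Irf9) and 0 were lower, where 11.6% of all genes tested changed in either direction. In 4 of 8, all but Irf7 of these, the CpG and untreated arrays did not overlap (13.6% of all genes). At 9 h, 3 of 8 changed, all upward (Irf1, Irf7 and Irf9; 8.52% of all genes), and at 24 h and at 72 h 1 of 8 did, Irf7, again upward (10.9% and 15% of all genes). At 5 and at 7 days 1 of 8 changed, Irf4, which was lower (30.9% and 15.6% of all genes). At 9 and 14 days 0 of 8 passed in limma (13.5% and 4.54% of all genes), with 2 members at an unadjusted p below 0.05 at each time. From 24 h on, the share of members that passed was near that of all genes or below it. When the 8 CpG times were tested jointly (F test in limma), 6 of 8 members passed, all but Irf3 and Irf5, against 63.5% of all genes. The plots of the members by array and of their differences show these courses.

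**Figure D1:**
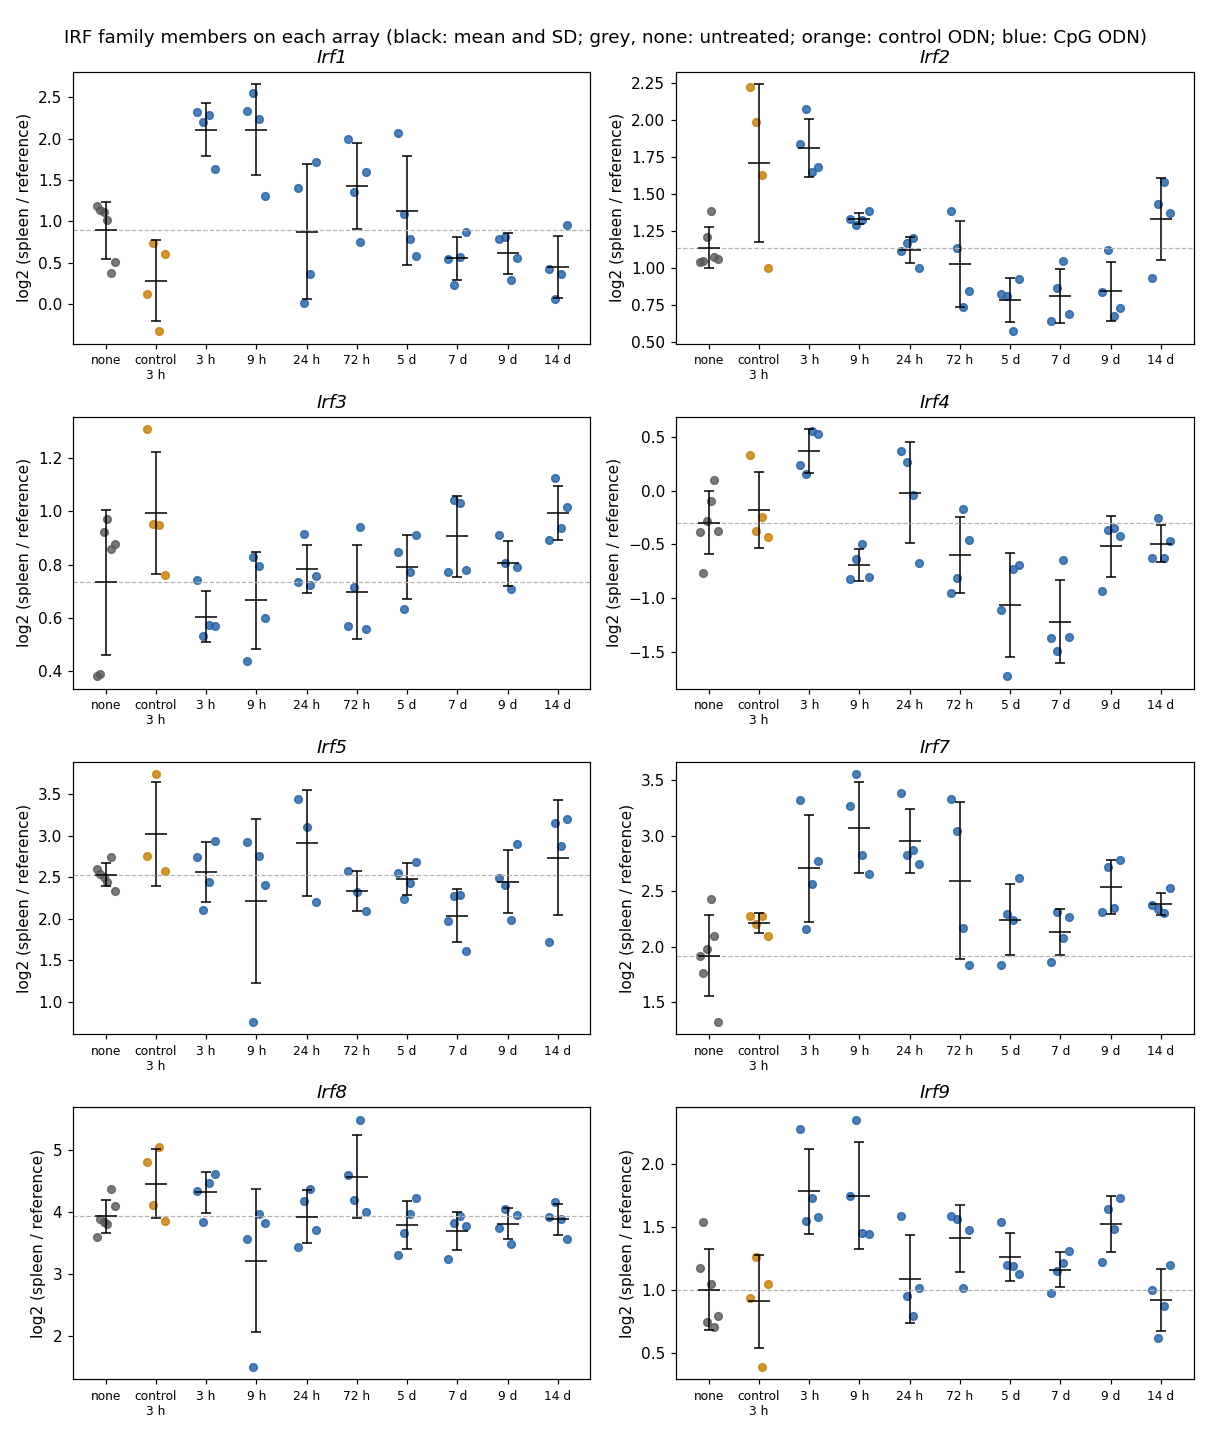
Log2 ratio of spleen over reference (vertical axis, own scale in each panel) of the 8 IRF members on every array, by group (horizontal axis): untreated (grey, "none"), control ODN (orange) and CpG ODN (blue), with group mean and SD in black and the untreated mean as a dashed line. Irf1 stands above every untreated array at 3 h and 9 h, and 1 CpG 9 h array is far below the other 3 for Irf8 and Irf5. The group mean of Irf4 is highest at 3 h and lowest at 7 days, while its lowest single array is at 5 days.

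**Figure D2:**
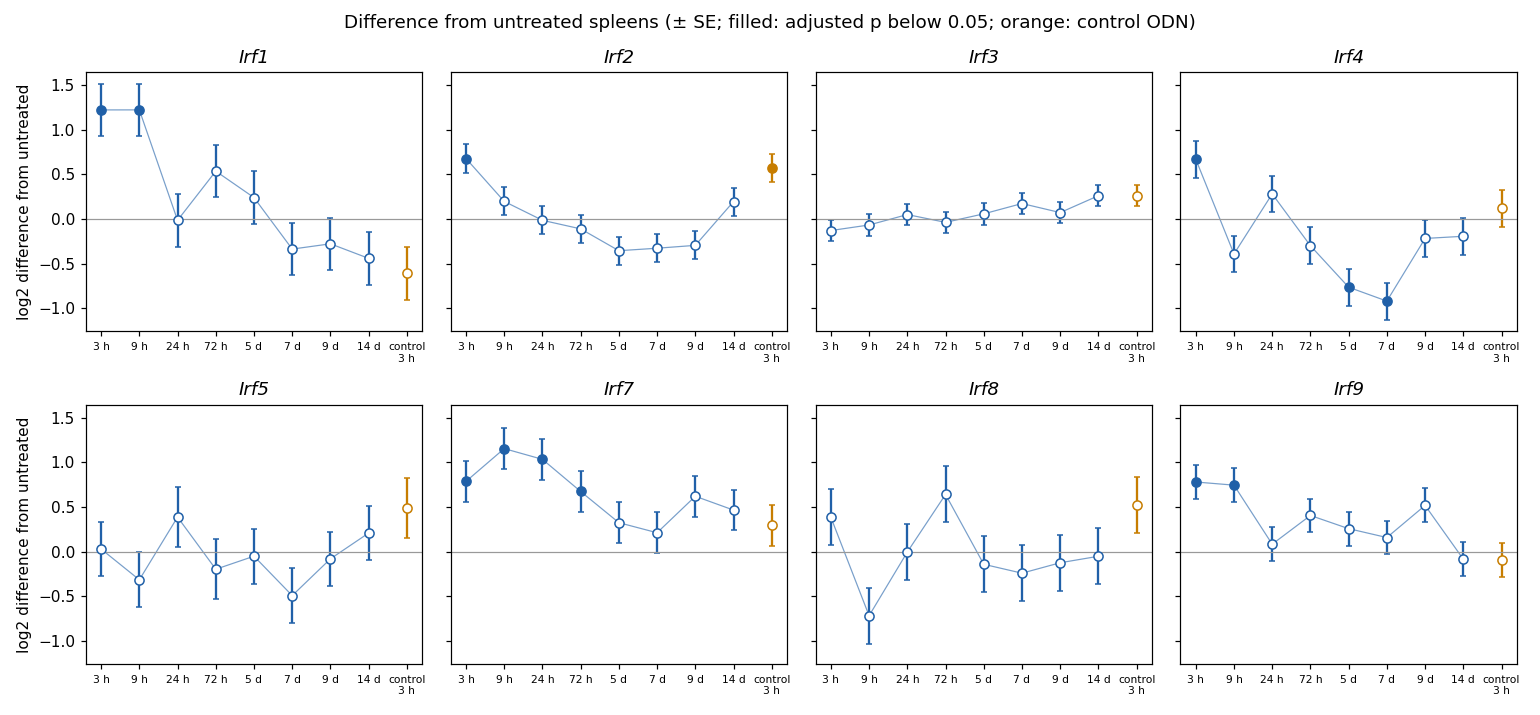
Log2 difference from untreated spleens ± standard error (vertical axis) for each member at the 8 CpG times (blue) and for control ODN (orange); filled points passed at an adjusted p below 0.05. Filled points lie above 0 for Irf1, Irf2, Irf4, Irf7 and Irf9 early, and below 0 for Irf4 at 5 and 7 days.

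Irf1, at chr11:53770014-53778374, rose at 3 h and 9 h, and its mean over 4 features was back by 24 h. Untreated spleens ran from 0.38 over a median of 1.06 to 1.18. The 4 arrays of CpG 3 h stood at 2.33, 2.20, 2.28 and 1.63. Each of them lay above every untreated array, and the group mean was 2.3-fold higher (1.22 ± 0.29, adjusted p = 0.00292). At 9 h the values were 2.34, 2.55, 2.24 and 1.31, again all above untreated spleens, with a difference of 1.22 ± 0.29 (adjusted p = 0.00444). By 24 h they had spread to 1.40, 0.01, 0.37 and 1.72, on both sides of the untreated range, and the mean was back at 0.87 ± 0.82 (SD, n = 4). The step from 9 h to 24 h was itself a fall, by 1.24 on the log2 scale (± 0.32, adjusted p = 0.0124), where 9.7% of all genes changed, and it passed with run as a fixed block (-1.41, adjusted p = 0.0324). In order of mean, 9 h and 3 h (both 2.11) came first, then 72 h (1.42), 5 days (1.13), untreated (0.89), 24 h (0.87), 9 days (0.61), 7 days (0.55), 14 days (0.45) and control ODN (0.28). Of these neighbours only 3 h and 72 h lay farther apart than the larger of their SDs. The untreated array and the 2 arrays of CpG 3 h that share a run differed by 0.82, and with run as a fixed block the calls were lost (3 h 0.82, adjusted p = 0.648; 9 h 0.67, adjusted p = 0.91).

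The 4 features of Irf1 moved together at 3 h and 9 h and apart later. At 3 h their differences ran from 1.04 to 1.46, and at 9 h from 0.88 to 1.47. Read alone, the features with standard errors of 0.52 and 0.41 were not called in limma at 3 h (adjusted p = 0.071 and 0.0996). Nor were they called at 9 h (adjusted p = 0.0851 and 0.0623). The other features passed at both times. The feature with the lowest ID, whose standard error was the smallest of the 4 (0.22), stayed higher at 72 h (1.20, adjusted p = 0.000285) and 5 days (0.93, adjusted p = 0.0013). The other 3 differed at 72 h by 0.26 to 0.36 and at 5 days by -0.23 to 0.33, and none of these passed. At 24 h it stood 0.62 ± 0.22 above untreated spleens (adjusted p = 0.0622), and the other 3 from -0.51 to 0.00. In the step from 9 h to 24 h that feature differed by -0.27 (adjusted p = 0.521), while the other 3 fell, by 1.32 to 1.98 on the log2 scale. Under control ODN the feature of lowest ID stood 0.20 above untreated spleens and the other 3 from 0.34 to 1.30 below them (-0.34 to -1.30). The fall after 9 h and whether Irf1 was still raised at 72 h and 5 days thus depended on the feature read, as the plot of single features shows; what each feature measures was not tested.

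Irf9, at chr14:55603985-55610030, the DNA-binding subunit of ISGF3, rose with Irf1. Untreated spleens ran from 0.71 over a median of 0.92 to 1.54. The CpG 3 h arrays were at 2.28, 1.55, 1.73 and 1.58. Each was above the highest untreated array, the closest by a narrow margin, and the difference was 0.78 ± 0.19 (adjusted p = 0.00323). At 9 h, with 1.75, 2.35, 1.45 and 1.44, the difference was 0.75 ± 0.19 (adjusted p = 0.0076) and the lower 2 arrays overlapped untreated ones. Without replicate 2 of CpG 9 h it was 0.54 (adjusted p = 0.0858). From 9 h to 24 h Irf9 fell by 0.66 on the log2 scale (± 0.21, adjusted p = 0.0374), to 1.09 ± 0.35 (SD, n = 4), which held with run as a fixed block (adjusted p = 0.039). At 9 days it stood at 1.52 ± 0.22 (SD, n = 4), 0.52 ± 0.19 above untreated spleens (adjusted p = 0.063), and at 14 days at 0.92 ± 0.24 (SD, n = 4).

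Irf9 also depended on the feature. Its feature with the lower ID differed by 1.06 ± 0.18 at 3 h (adjusted p = 3.92e-05), 0.86 ± 0.18 at 9 h, 0.77 ± 0.18 at 72 h (adjusted p = 0.00478) and 0.50 ± 0.18 at 5 days (adjusted p = 0.0352). Its other feature, with a standard error of 0.35, passed at 0 of these times in limma (3 h 0.50, adjusted p = 0.485; 72 h 0.04). In the step from 9 h to 24 h the features differed by -0.36 and -0.96, neither called alone. Like the 3 noisier Irf1 features, the second lay lower under control ODN (-0.48) and at 14 days (-0.43). Within the run that holds both groups Irf9 differed by 0.11 at 3 h, with 2 arrays against 1, and with run as a fixed block it was not called (adjusted p = 0.954); at 9 h the same fit put it at -0.05.

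**Figure D3:**
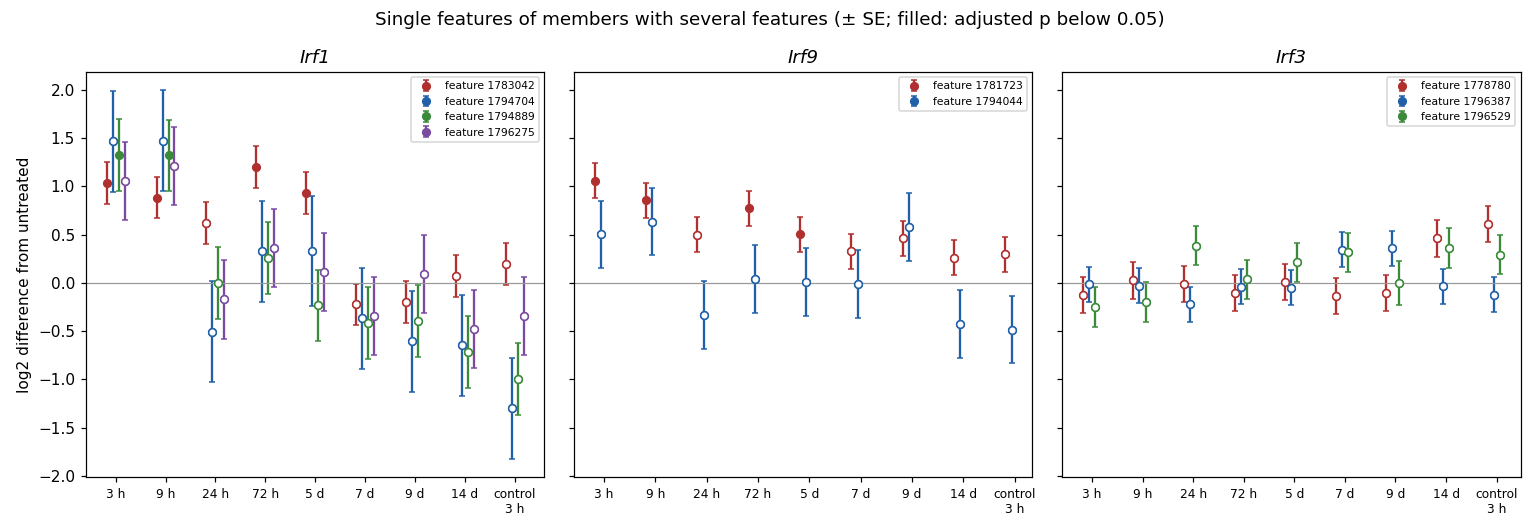
Log2 difference from untreated spleens ± standard error (vertical axis) for each single feature of Irf1, Irf9 and Irf3, the members with several features, by time after CpG ODN and for control ODN (horizontal axis); filled points passed at an adjusted p below 0.05. The red features of Irf1 and Irf9 stay above 0 at 72 h and 5 days, where the other features of the same gene lie near 0.

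Irf7, at chr7:141263183-141266499, was called higher at 4 of 8 times, more than the mean over features of any other member. Read alone, the features of lowest ID of Irf1 and Irf9 were also called higher at 4 of 8 times. Untreated spleens ran from 1.33 over a median of 1.95 to 2.43. CpG 3 h arrays were at 3.33, 2.17, 2.57 and 2.78, CpG 9 h arrays at 3.27, 3.55, 2.82 and 2.65, and CpG 24 h arrays at 3.38, 2.83, 2.87 and 2.74. At 9 h and 24 h every treated array of Irf7 lay above every untreated one, as it did for 2 of 8 members at 9 h (8.88% of all genes) and 1 of 8 at 24 h (8.09%), while at 3 h replicate 2 lay among them. The differences were 0.79 ± 0.23 at 3 h (adjusted p = 0.0153), 1.15 ± 0.23 at 9 h (2.2-fold, adjusted p = 0.000417) and 1.03 ± 0.23 at 24 h (adjusted p = 0.0018). At 72 h the arrays split, with 3.33 and 3.05 above the untreated range and 2.17 and 1.83 inside it. That call (0.67 ± 0.23, adjusted p = 0.0394) was lost without replicate 1 (0.43, adjusted p = 0.235) or replicate 2 (0.52, adjusted p = 0.176) of CpG 72 h, under quantile normalization (0.43, adjusted p = 0.124) and in several other settings.

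The later Irf7 means were 2.25 at 5 days, 2.13 at 7 days, 2.54 at 9 days and 2.39 at 14 days, all above the untreated 1.92 and none of them called. The difference at 9 days was 0.62 ± 0.23 (adjusted p = 0.0625), and it passed without untreated replicate 4 (0.72, adjusted p = 0.0353). Each step between consecutive times stayed short of the threshold for Irf7. Ordered by mean, from 9 h (3.08) down to untreated, neighbouring groups lay closer than the larger of their SDs. The 3 h call was lost without CpG replicate 1 (0.58, adjusted p = 0.133) and without untreated replicate 6 (0.67, adjusted p = 0.0533), while those at 9 h and 24 h held when any single array was left out. With run as a fixed block the differences were as large, 0.90 at 3 h, 1.23 at 9 h and 0.97 at 24 h, but did not pass (adjusted p = 0.443, 0.542 and 0.514).

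Irf2, at chr8:46739745-46847458, was called higher than in untreated spleens at 3 h after both oligonucleotide mixtures. The control arrays lie in a run without untreated ones, so for them run and treatment cannot be told apart. Untreated spleens ran from 1.04 over a median of 1.07 to 1.39. The CpG 3 h arrays were at 1.84, 2.08, 1.65 and 1.69, all above them, a difference of 0.68 ± 0.16 (adjusted p = 0.00204). With run as a fixed block it was 0.62 and not called (adjusted p = 0.176). The control ODN arrays were at 2.23, 1.99, 1.63 and 1.00, of which the last lay below every untreated array. Control ODN differed from untreated by 0.57 ± 0.16 (adjusted p = 0.0379), a call lost without control replicate 1 (0.40, adjusted p = 0.218) and in 6 further fits that left out another array, and under quantile normalization (0.35, adjusted p = 0.177). CpG 3 h differed from control ODN by 0.10 ± 0.17, with a 95% interval from -0.25 to 0.45. By 9 h Irf2 was at 1.33, by 24 h at 1.12 and by 5 days at 0.78 ± 0.15 (SD, n = 4), where all 4 arrays (0.82, 0.81, 0.57 and 0.92) lay below every untreated array without passing (-0.36 ± 0.16, adjusted p = 0.0821). Of all genes, 23.2% showed no overlap in that comparison.

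Irf4, at chr13:30749233-30766981, which directs the differentiation of B cells into plasma cells, was raised first and low later. Untreated spleens ran from -0.76 over a median of -0.33 to 0.10. The CpG 3 h arrays stood at 0.24, 0.16, 0.55 and 0.53, above all of them, a difference of 0.67 ± 0.21 (adjusted p = 0.025). By 9 h the arrays were at -0.82, -0.64, -0.50 and -0.81, below every CpG 3 h array. That fall by 1.06 on the log2 scale (± 0.23, adjusted p = 0.00618) passed in a step in which 1.44% of all genes changed, and 7.36% of all genes showed no overlap. Within the run that holds 4 arrays of 9 h and 2 of 3 h the difference was -0.89, not called with run as a fixed block (adjusted p = 0.115). Irf4 was then back at -0.02 ± 0.47 (SD, n = 4) at 24 h. The 3 h call was lost without untreated replicate 2 (0.58, adjusted p = 0.0725) or CpG 3 h replicate 3 or 4 (0.61, adjusted p = 0.0943 and 0.62, adjusted p = 0.0841). In the shared run the difference at 3 h was 1.30, and Irf4 was the member that passed with run as a fixed block (adjusted p = 0.0285).

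At 5 days Irf4 was at -1.11, -1.73, -0.73 and -0.69, and at 7 days at -1.37, -1.49, -0.65 and -1.37. At each time 2 or 3 arrays lay below the lowest untreated spleen and the rest inside the range. The differences were -0.76 ± 0.21 at 5 days (adjusted p = 0.00444) and -0.92 ± 0.21 at 7 days (1.9-fold lower, adjusted p = 0.00172). The call at 5 days was lost without CpG 5 days replicate 2 (-0.54, adjusted p = 0.0535), and that at 7 days held when any single array was left out. At 9 and 14 days the means were -0.52 and -0.49. CpG 7 days and CpG 14 days share a run, and between them Irf4 differed by -0.73 ± 0.23 (adjusted p = 0.0188, with 21.5% of all genes called) and the arrays did not overlap (26.6% of all genes).

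Irf8, at chr8:120736358-120756694, needed for the development of monocytes, type 1 dendritic cells and germinal centre B cells, was called at 0 of 8 times in limma, with an unadjusted p below 0.05 at 9 h and 72 h. Untreated spleens ran from 3.59 over a median of 3.85 to 4.36. At 9 h the arrays were at 3.56, 1.5, 3.96 and 3.81, and at 72 h at 4.60, 4.19, 5.48 and 3.99. At 9 h 3 arrays lay in or just below the untreated range and replicate 2 lay 2.28 below the mean of the other 3. On that array Irf5 was also 1.94 below the mean of the other 3, and so were, by over 1.5, 48 of the 29004 features measured on all 4 arrays. The difference from untreated was -0.72 ± 0.31 at 9 h (adjusted p = 0.18) and 0.64 ± 0.31 at 72 h (adjusted p = 0.165).

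Irf5, at chr6:29526130-29541869, and Irf3, at chr7:44997648-45002848, the other latent members beside Irf7, were called against untreated spleens at 0 of 8 times in limma. For Irf5 the group means lay between 2.04 (7 days) and 2.91 (24 h) after CpG ODN, against 2.53 in untreated spleens. At 7 days its arrays, 1.97, 2.28, 2.29 and 1.61, were all below the lowest untreated value of 2.34 (16.3% of all genes showed no overlap), and the difference was -0.49 ± 0.31 (adjusted p = 0.297). Irf3 had the narrowest course, with means from 0.60 (3 h) to 0.99 (14 days) against 0.73 in untreated spleens. Its differences ran from -0.13 ± 0.12 at 3 h to 0.26 ± 0.12 at 14 days (adjusted p = 0.208), and the widest of their 95% limits was 0.50.

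CpG and control ODN were also compared at 3 h, where both groups had received injected DNA but lay in different runs. Of 8 members, 2 were higher with CpG ODN (Irf1 and Irf9) and 1 was lower (Irf3), where 20.7% of all genes changed. Irf1 differed by 1.83 ± 0.32 (3.6-fold, adjusted p = 5.8e-05), with control arrays at 0.11, 0.74, -0.33 and 0.60. The control arrays of Irf1 lay in or below the untreated range (-0.61 ± 0.29 against untreated, adjusted p = 0.206), and on its feature of lowest ID, where control ODN stood above untreated spleens, CpG and control ODN differed by 0.84 (adjusted p = 0.0105). Irf9 differed by 0.87 ± 0.21 (adjusted p = 0.00231), with control arrays at 0.94, 1.26, 0.39 and 1.04. In both genes the CpG and control arrays did not overlap. Irf3 was at 0.74, 0.53, 0.57 and 0.57 with CpG and at 1.31, 0.95, 0.95 and 0.76 with control ODN, also without overlap, 3 of 8 members in all against 20.1% of all genes (-0.39 ± 0.13, adjusted p = 0.0316). That call was lost without control replicate 1 (-0.28, adjusted p = 0.159) and in 4 further fits that left out another array, and under quantile normalization (-0.29, adjusted p = 0.112). It also depended on the feature. The Irf3 feature of lowest ID differed by -0.74 (adjusted p = 0.00943). The others differed by -0.54 (adjusted p = 0.085) and, in the opposite direction, by 0.11 (adjusted p = 0.757). For Irf7, with control arrays between 2.10 and 2.28, the difference was 0.49 ± 0.25 (adjusted p = 0.16) and the groups overlapped, and for Irf4 it was 0.55 ± 0.23 (adjusted p = 0.0793). Against untreated spleens control ODN changed 1 of 8 members, Irf2, and 3.52% of all genes. The control and CpG 3 h arrays share no run, so that run and oligonucleotide cannot be told apart in this comparison.

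In the run that holds control ODN with CpG 72 h, 7 days and 14 days, further differences could be read without crossing runs. Irf1 was higher at 72 h than at 14 days (0.98 ± 0.32, adjusted p = 0.0202; 1 of 8 members called, 29.1% of all genes) and higher at 72 h than with control ODN (1.14 ± 0.32, adjusted p = 0.0128). Irf2 was lower at 7 days than at 14 days (-0.52 ± 0.17, adjusted p = 0.0265). With Irf4, 2 of 8 members were called in that comparison, against 21.5% of all genes. Irf2 was also lower than with control ODN both at 72 h (-0.69 ± 0.17, adjusted p = 0.0056) and at 7 days (-0.90 ± 0.17, adjusted p = 0.000244). In a fit of this run alone the first 2 of these Irf2 calls were lost (adjusted p = 0.114 and 0.0506) and the Irf1 and Irf4 calls held. Members called against control ODN thus numbered 2 of 8 at 72 h (16.9% of all genes), 3 of 8 at 7 days, with Irf4 and Irf5 also lower (24.8%), and 0 of 8 at 14 days in limma (5.74%, with 1 member at an unadjusted p below 0.05). The control spleens were taken at another time, 3 h. Leaving out CpG 72 h replicate 1 or CpG 14 days replicate 2 removed the call at 72 h against 14 days, and leaving out CpG 7 days replicate 1 or 4 or CpG 14 days replicate 2 removed both calls at 7 days against 14 days.

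Steps between consecutive times passed for 3 members: Irf4 from 3 h to 9 h, and Irf1 and Irf9 from 9 h to 24 h. Neither fall from 9 h to 24 h was called without CpG 24 h replicate 2 or 3. Without CpG 9 h replicate 1 or 2 the number of members called in that step was 1. In the steps from 24 h to 72 h, 72 h to 5 days, 5 to 7 days, 7 to 9 days and 9 to 14 days 0 of 8 members passed in limma, against 5.5%, 3.42%, 3.22%, 4.93% and 9.68% of all genes, with 1, 2, 0, 1 and 2 members at an unadjusted p below 0.05. The level of Irf7 relative to Irf1 on the same array was compared with untreated spleens by exact permutation of the arrays, as was that of Irf8 relative to Irf4, 18 two-sided tests in all with a smallest possible p of 0.00476. Irf7 minus Irf1 was 2.08 ± 0.79 (SD, n = 4) at 24 h against 1.03 ± 0.43 (SD, n = 6) in untreated spleens, a shift of 1.05 (exact permutation p = 0.0333, adjusted 0.0857). It shifted by 0.90 at 9 days and 0.91 at 14 days (exact permutation p = 0.0143 for each). Under control ODN the shift was as large, 0.90 (exact permutation p = 0.0238, adjusted 0.0857). With the single Irf1 feature of lowest ID in place of the mean, the shifts were 0.42 at 24 h, 0.82 at 9 days, 0.39 at 14 days and 0.09 under control ODN (adjusted exact permutation p = 0.283, 0.114, 0.267 and 0.714). Irf8 minus Irf4 shifted by 0.94 at 72 h (exact permutation p = 0.0143), 0.62 at 5 days and 0.68 at 7 days. After adjustment over the 18 tests 0 passed, the smallest adjusted p being 0.0857, and 7 of them had an unadjusted p below 0.05.

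The genes that act upstream of the family were read from lists, each given as members called out of those measured. The shares of all genes changed, to be read beside every list below, were 11.6% at 3 h and 8.52% at 9 h. They were 10.9% at 24 h, 15% at 72 h, 30.9% at 5 days and 15.6% at 7 days. Last came 13.5% at 9 days, 4.54% at 14 days and 3.52% under control ODN. Of 7 genes of the endosomal receptor route 3 were higher and 1 lower at 3 h (median 0.52, with -0.02 over all genes): Tlr7 (1.49), a receptor for single-stranded RNA, and Myd88 (1.42), the adaptor of TLR9, rose, and Slc15a4 (-0.84), an endolysosomal transporter needed for this route, fell. Myd88 was also higher under control ODN (1.01), where run and treatment cannot be told apart. Of 8 kinases and adaptors that activate IRF3 and IRF7, 4 were higher and 1 lower at 3 h (median 0.35), with Ikbke (1.00) and Tbk1 (0.70), the kinases that phosphorylate IRF3 and IRF7, up and the mitochondrial adaptor gene Mavs (-0.71) down. By 9 h 1 of 8 was higher, Ikbke (0.64), and at 24 h and 72 h 0 of 8 passed in limma (medians 0.09 and -0.04). At 5 days 2 were higher, Mavs (0.50) and Azi2 (0.38), and 2 lower, Sting1 (-0.57) and Ticam1 (-0.34), where 30.9% of all genes changed. At 7 days 2 were lower, Tbk1 (-0.49) and Ticam1 (-0.31), at 9 days 0 passed in limma and at 14 days 1 was higher, Sting1 (0.72).

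Of 8 genes of the interferon receptor route 4 were higher and 0 lower at 3 h (median 0.31), led by Stat2 (2.03), the ISGF3 partner of IRF9, and the receptor kinases Jak2 (0.80) and Tyk2 (0.62). Stat2 stayed higher at 9 h (1.78), 24 h (1.38), 72 h (1.14) and 5 days (0.62). The mean of Irf9 was no longer called after 9 h, but this depended on the feature. The Irf9 feature with the lower ID stood 0.50 above untreated spleens at 24 h (adjusted p = 0.0769). It was called higher at 72 h (0.77) and 5 days (0.50), and the other feature was not (0.04 and 0.01). Of 8 genes on a list made for DNA-binding partners of IRF4 and IRF8, 3 were higher at 3 h (median 0.35), namely Batf (1.61), Prdm1 (0.73) and Ikzf1 (0.47). The list also holds Prdm1 and Bcl6, which are not taken here as factors that bind DNA together with IRF4 or IRF8. Ikzf1 was also higher under control ODN (0.56), with the limit given above for Myd88. Batf, which joins IRF4 and IRF8 at AP-1 composite sites, was still higher at 9 h (1.27). At 5 days 2 of the 8 were lower, Spib (-1.73), an Ets factor of B cells and plasmacytoid dendritic cells, and Bcl6 (-0.85), the germinal centre repressor. At 7 days 1 was, Spib (-1.19). Of all genes 30.9% changed at 5 days and 15.6% at 7 days. Of 5 corepressors and ubiquitin ligases that act on IRF proteins 0 passed at 3 h, 9 h or 24 h in limma (medians -0.06, -0.18 and -0.21), and Irf2bpl was lower at 72 h (-0.55), 5 days (-0.76) and 7 days (-0.55).

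At 3 h the median difference of textbook ISGF3 and IRF7 targets exceeded the difference of every family member. Of these 8 targets, 8 were higher at 3 h, 9 h and 24 h (medians 2.99, 2.96 and 1.98), led by Ifit2 (4.57), Ifit3 (4.44) and Usp18 (4.01) at 3 h. At 72 h 6 of 8 were higher (median 1.47), at 5 days 3 were higher and 1 lower (0.37), at 7 days 3 were higher, at 9 days 2 were higher and 1 lower, and at 14 days and under control ODN 0 passed in limma (medians 0.05 and -0.04). Isg15, a ubiquitin-like antiviral protein, was among the called genes at 5 days (0.98), 7 days (1.32) and 9 days (1.03). Of 7 IRF1 targets 5 were higher at 3 h, 9 h and 24 h (medians 0.84, 0.79 and 0.89) and 4 at 72 h (0.74), among them the guanylate-binding protein gene Gbp2 (3.44 at 3 h, 2.25 at 24 h and 2.69 at 72 h) and the peptide transporter gene Tap1 (1.54, 1.08 and 1.51). They were called at 24 h, when the mean of Irf1 stood at the untreated level. The Irf1 feature of lowest ID stood 0.62 ± 0.22 above untreated spleens at that time (adjusted p = 0.0622). At 5 days 3 of the 7 were higher and 1 lower (median 0.19), where 30.9% of all genes changed.

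Of 4 IRF8 targets measured at 3 h 2 were higher, Il12b (3.67), the p40 subunit of interleukin-12, and Cybb (1.04), a subunit of the phagocyte oxidase, at a time when Irf8 itself differed by 0.39 ± 0.31 (adjusted p = 0.537). Il12b was higher at 9 h (2.82), when Cst3 was lower (-0.90), and at 24 h (1.11) too. Of 5 interferon genes 0 passed at 3 h or 9 h in limma (medians 0.05 and 0.35). Ifna5 was higher at 5 days (0.43) and 9 days (0.51), where 30.9% and 13.5% of all genes changed. Ifng was higher at 9 days (0.65), when Ifna1 was lower (-0.48). Whole-spleen levels at the times sampled are all these values cover. The plot of the gene lists gives counts and medians for every group.

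**Figure D4:**
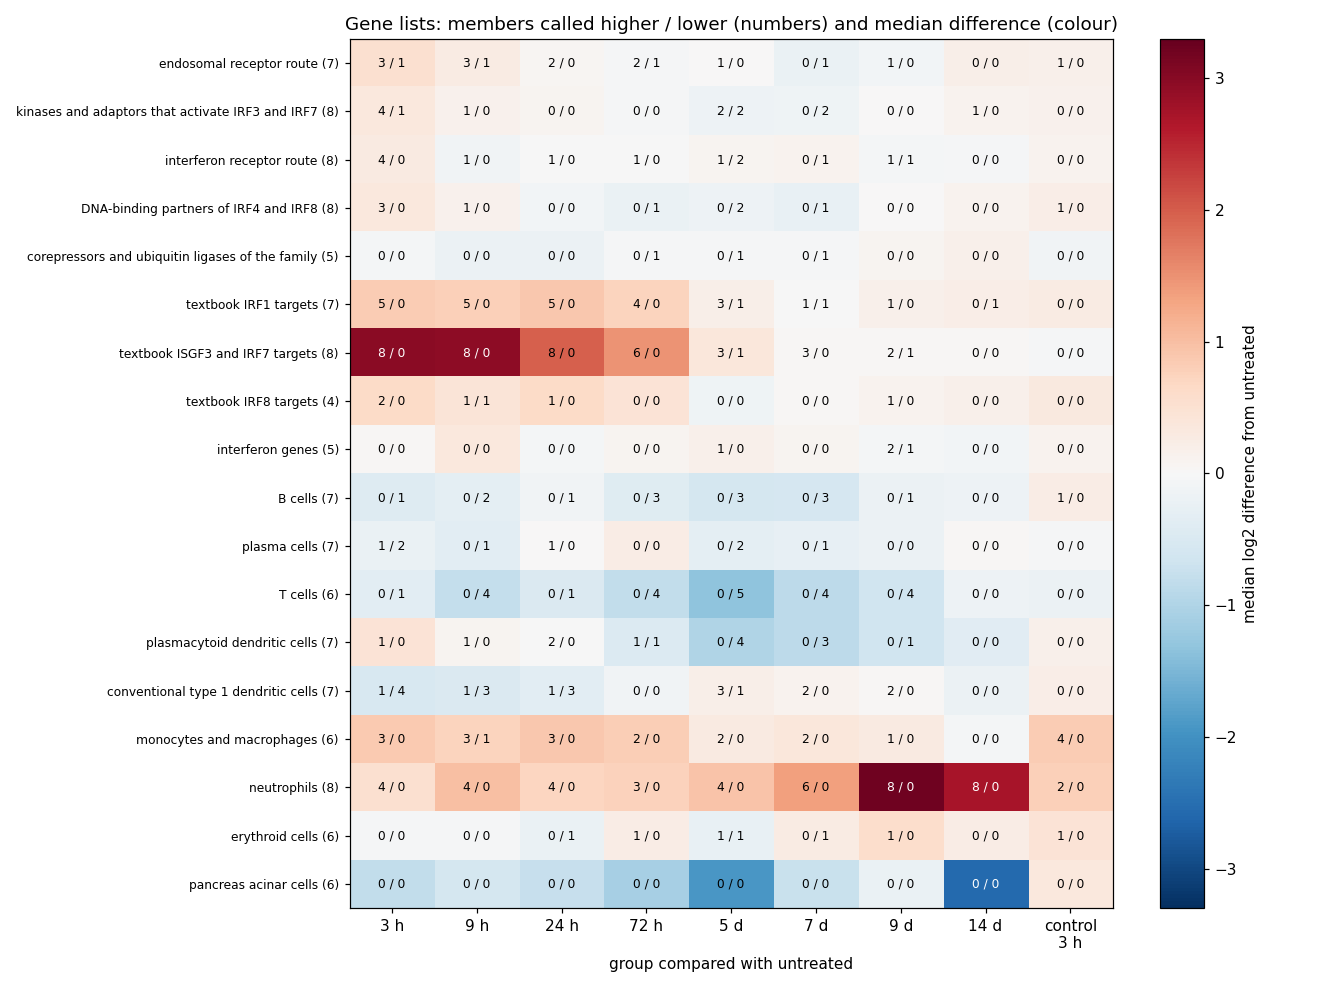
Gene lists (rows, with the number of measured genes) in each group compared with untreated spleens (columns): numbers are members called higher / lower at an adjusted p below 0.05, and colour is the median log2 difference of the list. The ISGF3 and IRF7 targets are 8 / 0 through 24 h and 0 / 0 at 14 days and under control ODN, and markers of B cells, T cells and plasmacytoid dendritic cells have lower members at 5 and 7 days.

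Cell type markers also differed from untreated spleens at 5 and 7 days, when 30.9% and 15.6% of all genes changed. Of 7 markers of plasmacytoid dendritic cells, which hold much Irf7 and Irf8, 4 were lower at 5 days (median -0.98, with 0.01 over all genes) and 3 at 7 days (median -0.87), among them Klk1 (-2.40 at 5 days), Tcf4 (-1.13 and -1.04) and Cox6a2 (-1.08 and -0.87). Their mean over 6 genes measured on all arrays ran from 0.86 to 1.53 in untreated spleens, from -0.02 to 0.61 at 5 days and from 0.16 to 0.67 at 7 days, without overlap. Early on, Bst2 was higher (2.16 at 3 h), which is itself an interferon-induced gene. Of 7 markers of B cells 3 were lower at 72 h, 5 days and 7 days (medians -0.41, -0.59 and -0.55), namely Cd79b, Fcer2a and Pax5, and the mean of the 7 ran from 2.69 to 3.49 in untreated spleens, from 2.32 to 2.49 at 5 days and from 2.21 to 2.52 at 7 days. Of 6 markers of T cells 5 were lower at 5 days (median -1.34), led by Lef1 (-1.61), and 4 at 9 h (-0.78), 72 h (-0.82), 7 days (-0.86) and 9 days (-0.65). The T cell mean ran from 1.71 to 2.32 in untreated spleens, from 0.61 to 1.02 at 5 days and from 1.18 to 1.30 at 7 days, without overlap. Of 7 markers of plasma cells, which IRF4 is known to control in part, 2 were lower at 5 days (Jchain -0.64 and Mzb1 -0.63) and 1 at 7 days (Tnfrsf17 -0.55), shares near those of all genes. Their mean ran from -0.41 to 0.29 in untreated spleens, from -0.63 to -0.29 at 5 days and from -0.63 to -0.37 at 7 days. Irf4 was lowest in the same groups; the part of these cells in the Irf4 values was not tested.

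At 3 h, 3 of 6 markers of monocytes and macrophages were higher (median 0.87; mean from 2.16 to 2.37 against 0.36 to 1.31 in untreated spleens) and 4 of 7 markers of type 1 dendritic cells, which need IRF8, were lower and 1 higher (median -0.53), led by Xcr1 (-0.88), Cadm1 (-0.78) and Tlr3 (0.77). Under control ODN 4 of 6 monocyte and macrophage markers were higher (median 0.83), where 3.52% of all genes changed. Run and treatment cannot be told apart in that comparison. In a fit of the 2 groups alone 0 genes were called for control ODN. Neutrophil markers were higher throughout, in 4 of 8 at 3 h, 9 h, 24 h and 5 days, 3 at 72 h, 6 at 7 days (medians from 0.52 at 3 h to 1.36 at 7 days) and 2 under control ODN (median 0.79). At 9 and 14 days, when 0 members passed, 8 of 8 were higher (medians 3.20 and 2.72). Markers of pancreas acinar cells, which lie beside the spleen, passed in 0 of 6 at every time in limma, and their mean spread widely within groups (from 0.52 to 4.90 in untreated spleens). The part of any of these cells in the values of the members was not tested.

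Genes of like course were named for the members called in the F test whose largest absolute difference from untreated was at least 1, which were Irf1 and Irf7, by the root mean square distance between their 9 differences from untreated, over 12320 genes. Nearest to Irf1 were Sppl2a (0.28), an intramembrane protease, Ifi35 (0.30), an interferon-induced gene, and Ctsl (0.31), which encodes cathepsin L. At 3 h and 9 h Ctsl differed by 1.29 and 1.35. Nearest to Irf7 were Rab3d (0.16), Iglon5 (0.20) and Siglece (0.20), of which Siglece, an inhibitory sialic acid receptor of myeloid cells, differed by 1.06 at 9 h and 1.08 at 24 h. The 9 differences share 1 untreated group, so the likeness is a description.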

How the data were processed

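Mouse spleen RNA was extracted with TRIzol, amplified, and hybridised in 2 colours on 42 arrays, per the labels' protocols. The authors deposited 1 normalized log2 ratio per feature and array. Their normalization, base and direction are not stated there. Base 2 and spleen over reference were inferred from the values. Of 30601 features, 23485 carried 1 gene symbol, 179 several and 6937 none in the platform annotation; those with 1 symbol were averaged per symbol. One label spells ODN 1555 as 155, and both were read as the same oligonucleotide.

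Groups were compared with limma 3.58.1 in R 4.3.3: 1 coefficient per group over 42 arrays, eBayes, genes with at least 3 values in each group compared, and Benjamini-Hochberg adjustment within a comparison. The labels call the arrays biological replicates. Same-numbered arrays of different groups did not deviate together (median correlation 0.026), so no block was used. A run is a series of arrays whose database numbers lie within 12 of the next. The fit was tested on simulated data, and figures were drawn with python 3.11.15 and matplotlib 3.10.9.

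The members and gene lists were chosen with earlier results of these data known. All 8 members were described, up to 3 called genes of a list were named per comparison by size, and for members with a difference of at least 1 the 3 genes of nearest course. Alternatives were array medians, quantile normalization, missing-value filters, single features, array weights, a stricter threshold, separate fits, replicate and run blocks, and leaving out each array. The alternatives that average only features with a value on all arrays, or leave out the Irf1 and Irf9 features of lowest ID, were chosen after seeing the data.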

Additional observations from a re-analysis of the deposited data

Results flagged for a closer look

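Single arrays stood apart from the other 3 of their group for 2 members. Irf4 was at -0.65 on CpG 7 days replicate 3, above the other 3 arrays (-1.49 to -1.37), and at -0.94 on CpG 9 days replicate 1, below the other 3 (-0.43 to -0.35). Irf8 was at 1.5 on CpG 9 h replicate 2, below the other 3 (3.56 to 3.96). In each case the gap to the nearest array exceeded Dixon's 95% critical value, which chance passes in about 1 of 20 groups, and 77 groups were tested.

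Among 56 tests of a member between consecutive times, 3 passed in limma (Benjamini-Hochberg within each step). Of all genes, 1.44% passed from 3 h to 9 h and 9.7% from 9 h to 24 h. In the later steps the shares of all genes ran from 3.22% to 9.68%. Irf4 differed by -1.06 between 9 h and 3 h (adjusted p = 0.00618). Irf1 differed by -1.24 between 24 h and 9 h (adjusted p = 0.0124), and Irf9 by -0.66 (adjusted p = 0.0374).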

How the results depend on the processing

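Of 891 member differences recomputed under other settings, 805 kept their direction and their side of the threshold, 27 were no longer called, 16 were newly called and 43 changed sign; each of the 43 was uncalled under the setting that turned it, and of these Irf9 at 9 h was called in the joint fit. When any single array was left out, Irf1, Irf2 and Irf9 at 3 h and Irf1 at 9 h stayed called against untreated spleens. So did Irf7 at 9 h and 24 h and Irf4 at 7 days. With run as a fixed block, Irf1, Irf2, Irf7 and Irf9 were not called at these times. The causes were not tested. In what follows a time alone is compared with untreated spleens. With array medians subtracted signs turned to 0.0023 for Irf8 at 24 h. Under quantile normalization the members called numbered 0 for 72 h and control ODN, 1 for 9 days, 2 for 5 days and 7 days. Signs there turned to -0.21 for Irf5 at 3 h, -0.0077 for Irf3 at 24 h, -0.012 for Irf9 at 24 h, -0.0068 for Irf3 at 5 days, -0.031 for Irf3 at 9 days and 0.012 for Irf8 at 3 h against control ODN. With 1 feature per member the members called numbered 0 for 24 h against 9 h, 1 for 7 days against 5 days, 2 for 72 h against 14 days, 3 for 72 h and 5 days. Signs also turned to 0.025 for Irf3 at 9 h, 0.62 for Irf1 at 24 h, -0.015 for Irf3 at 24 h, -0.14 for Irf3 at 7 days, -0.10 for Irf3 at 9 days, 0.075 for Irf1 at 14 days, 0.26 for Irf9 at 14 days, 0.20 for Irf1 at control ODN, 0.30 for Irf9 at control ODN, 0.27 for Irf7 minus Irf1 at 9 h, -0.52 for Irf7 minus Irf1 at 72 h and -0.60 for Irf7 minus Irf1 at 5 days. With array weights the members called numbered 1 for 72 h against 24 h, 5 days against 72 h and 9 days against 7 days, 2 for 5 days, 9 days, 9 h against 3 h and 14 days against 9 days, 4 for 72 h and 72 h against 14 days, 6 for 72 h against control ODN. Signs there turned to -0.012 for Irf3 at 24 h, 0.020 for Irf8 at 24 h, 0.014 for Irf2 at 72 h, -0.046 for Irf3 at 5 days, 0.046 for Irf9 at control ODN and -0.082 for Irf2 at 3 h against control ODN. At an adjusted p below 0.01 the members called numbered 0 for 72 h, control ODN, 24 h against 9 h, 72 h against 14 days and 7 days against 14 days, 1 for 72 h against control ODN, 3 for 3 h. Over features with a value on all arrays signs turned to 0.15 for Irf1 at 24 h, -0.12 for Irf3 at 24 h and -0.020 for Irf3 at 5 days. Without the feature of lowest ID of Irf1 and Irf9 the members called numbered 0 for 72 h against 14 days, 1 for 24 h against 9 h and 72 h against control ODN. Signs also turned to -0.33 for Irf9 at 24 h, -0.052 for Irf1 at 5 days and -0.010 for Irf9 at 7 days. In fits of the 2 groups alone the members called numbered 0 for 72 h, control ODN, 24 h against 9 h and 72 h against control ODN, 1 for 9 days, 9 days against 7 days and 14 days against 9 days, 2 for 5 days and 7 days. With the replicate block the members called numbered 0 for 72 h and control ODN, 1 for 14 days against 9 days. Signs also turned to 0.0010 for Irf3 at 9 h, 0.15 for Irf8 at 24 h, -0.041 for Irf9 at 24 h, 0.030 for Irf3 at 72 h, 0.0097 for Irf8 at 5 days, 0.027 for Irf8 at 9 days and 0.10 for Irf8 at 14 days. With run as a random block the members called numbered 0 for 72 h and control ODN. Signs there turned to 0.0015 for Irf8 at 24 h. With run as a fixed block the members called numbered 0 for 9 h, 24 h and 9 h against 3 h, 1 for 3 h, 7 days against 14 days and 72 h against control ODN. Signs also turned to 0.18 for Irf3 at 3 h, -0.0030 for Irf2 at 9 h, 0.21 for Irf3 at 9 h, 0.41 for Irf4 at 9 h, -0.053 for Irf9 at 9 h, 0.64 for Irf8 at 24 h and -0.88 for Irf9 at 24 h.

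Leaving out 1 array at a time, the members called ranged over 0 to 1 for 72 h, 0 to 1 for 5 days, 0 to 1 for 9 days, 0 to 1 for control ODN, 0 to 3 for 24 h against 9 h, 0 to 1 for 72 h against 24 h, 0 to 1 for 9 days against 7 days, 0 to 1 for 14 days against 9 days, 0 to 3 for 72 h against 14 days, 0 to 3 for 7 days against 14 days, 1 to 3 for 72 h against control ODN and 0 to 1 for 14 days against control ODN. The differences whose sign depended on 1 array ranged over -0.10 to 0.18 for Irf5 at 3 h, -0.14 to 0.0087 for Irf3 at 9 h, -0.55 to 0.17 for Irf5 at 9 h, -0.30 to 0.27 for Irf1 at 24 h, -0.041 to 0.035 for Irf2 at 24 h, -0.021 to 0.10 for Irf3 at 24 h, -0.15 to 0.16 for Irf8 at 24 h, -0.083 to 0.19 for Irf9 at 24 h, -0.12 to 0.010 for Irf3 at 72 h, -0.072 to 0.42 for Irf1 at 5 days, -0.013 to 0.11 for Irf3 at 5 days, -0.12 to 0.032 for Irf5 at 5 days, -0.28 to 0.018 for Irf8 at 5 days, -0.23 to 0.073 for Irf5 at 9 days, -0.14 to 0.057 for Irf8 at 14 days, -0.18 to 0.025 for Irf9 at 14 days, -0.050 to 0.20 for Irf4 at control ODN, -0.21 to 0.079 for Irf9 at control ODN, -0.14 to 0.27 for Irf2 at 3 h against control ODN, -0.34 to 0.057 for Irf8 at 3 h against control ODN, -0.19 to 0.071 for Irf7 minus Irf1 at 9 h, -0.034 to 0.45 for Irf7 minus Irf1 at 72 h, -0.22 to 0.53 for Irf7 minus Irf1 at 5 days, -0.56 to 0.26 for Irf8 minus Irf4 at 9 h, -0.44 to 0.0068 for Irf8 minus Irf4 at 24 h and -0.025 to 0.26 for Irf8 minus Irf4 at 9 days. Irf9 at 9 days was called without untreated replicate 2 (adjusted p = 0.0223) or CpG 9 days replicate 1 (adjusted p = 0.043), and Irf4 at 3 h against control ODN without control replicate 1 (adjusted p = 0.0327).

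Repeat numbers did not pair the arrays: over 180 same-numbered pairs of different groups the median correlation of deviations was 0.026, and 63 exceeded 0.1. With the replicate block Irf7 was not called at 3 h (0.68, adjusted p = 0.0769), at 72 h (0.57, adjusted p = 0.132), nor Irf2 under control ODN (0.54, adjusted p = 0.111). Over the whole table, control ODN changed 531 genes in limma, but 0 in a fit of the 2 groups alone, 25 with the replicate block, 184 under quantile normalization, 190 with run as a random block, 947 single features, 1013 with array weights, and 0 to 2321 when 1 array was left out (0 without control replicate 1, 4 without replicate 3 and 2321 without replicate 4). CpG 14 days changed 681 genes, 353 under quantile normalization, 1125 single features, 1169 with array weights and as few as 202 without its replicate 2. With array weights 2739 genes changed at 3 h (1774 without), 1937 at 9 h (1289), 5794 at 72 h (2267) and 3778 at 7 days (2366). With run as a fixed block 381 changed at 3 h, 129 at 9 h and 84 at 24 h (1656 without). Alone, 24 h gave 1070 genes and 3 h against control ODN 2004 (3124 in the joint fit). At an adjusted p below 0.01 the counts were 1178 at 3 h, 742 at 9 h, 795 at 24 h, 873 at 72 h, 2824 at 5 days (4633 at 0.05), 1178 at 7 days, 909 at 9 days (2048), 143 at 14 days, 26 for control ODN and 1636 for 3 h against control ODN. Counts at 24 h were 832 without its replicate 3 and 2572 without replicate 4, at 72 h 1225 without replicate 2 and 1126 without replicate 3, at 9 days 1168 without replicate 4, and for 3 h against control ODN 1916 without control replicate 3. The number of arrays limits the precision. Probe intensities were not used here, so signal over background is unknown.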
